A study of Homo sapiens with 12 samples.

Results

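Transcripts of 10 genes of the integrated stress response were followed: ATF4, the transcription factor at its centre, and 9 genes known as ATF4 targets or partners, ATF3, DDIT3, DDIT4, TRIB3, CHAC1, SESN2, ASNS, PSAT1 and PHGDH. They were taken by gene symbol, and all 10 were found among the 60603 genes of the count table and passed the filter on low counts. The study measured poly(A) RNA by sequencing in the established human bladder carcinoma line T24, for work on inducible degradation of endogenous proteins with the system named AlissAID. The 4 groups were WT cells with no treatment, WT cells with 5-Ad-IAA, cells of the genotype labelled NS1 with no treatment, and NS1 cells with 5-Ad-IAA, each with 3 libraries. 5-Ad-IAA is an auxin analogue that brings a plant F-box protein and a degron together in engineered cells, and it is called the inducer here. What NS1 stands for, which parts of the degradation system each line carries and whether the NS1 line is a single clone are not stated in the labels, and a dose and a duration were not used here. The labels number the replicates but do not say whether they came from separate cultures, so p-values measure only the spread between these libraries, which may be technical.

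In the integrated stress response, the kinases GCN2, PERK, PKR and HRI phosphorylate the translation initiation factor eIF2 when amino acids or heme are short, when unfolded proteins collect in the endoplasmic reticulum, or when double-stranded RNA is present. General translation then slows while the ATF4 message is translated more, and the ATF4 protein, paired with C/EBP-family proteins, binds C/EBP-ATF response elements in genes for amino acid synthesis, transport and tRNA charging. The level of the ATF4 message is therefore only one step in its control, and neither ATF4 protein nor eIF2 phosphorylation was measured in these libraries. ATF4 also serves cells outside acute stress, since proliferating tumour cells use it to keep up the supply of serine, asparagine and other amino acids.

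Promoter sequences of 5 members are shown. ASNS, PSAT1 and PHGDH were taken because they did not overlap between the lines under either treatment. CHAC1 and ASNS hold a match to the C/EBP-ATF response element, and DDIT4 differed in the other direction. SESN2 also did not overlap under either treatment and ATF3 also holds a match, but their windows are not shown. Each sequence shown is the RefSeq window from 250 bases before to 50 bases after an annotated start, on GRCh38.p14, written 5′ to 3′ on the gene's own strand. Capitals mark a match to the element searched, TGATGNAA on either strand. The ASNS window is chr7:97872359-97872658 on the minus strand, the CHAC1 window chr15:40953221-40953520, the PSAT1 window chr9:78296875-78297174, the PHGDH window chr1:119711684-119711983 and the DDIT4 window chr10:72273674-72273973, these 4 on the plus strand.
ASNS: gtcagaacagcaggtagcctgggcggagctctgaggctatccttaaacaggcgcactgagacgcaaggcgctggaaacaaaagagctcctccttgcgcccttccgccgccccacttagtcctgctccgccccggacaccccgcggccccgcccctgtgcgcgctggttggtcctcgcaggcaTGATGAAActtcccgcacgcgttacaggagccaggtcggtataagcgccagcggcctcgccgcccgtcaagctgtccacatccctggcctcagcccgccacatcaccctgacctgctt
CHAC1: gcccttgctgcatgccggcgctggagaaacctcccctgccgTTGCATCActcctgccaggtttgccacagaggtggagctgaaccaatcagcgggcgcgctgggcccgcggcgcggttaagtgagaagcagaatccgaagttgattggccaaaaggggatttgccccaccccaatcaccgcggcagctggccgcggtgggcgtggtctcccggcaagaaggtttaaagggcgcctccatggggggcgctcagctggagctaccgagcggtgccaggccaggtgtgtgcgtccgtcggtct
PSAT1: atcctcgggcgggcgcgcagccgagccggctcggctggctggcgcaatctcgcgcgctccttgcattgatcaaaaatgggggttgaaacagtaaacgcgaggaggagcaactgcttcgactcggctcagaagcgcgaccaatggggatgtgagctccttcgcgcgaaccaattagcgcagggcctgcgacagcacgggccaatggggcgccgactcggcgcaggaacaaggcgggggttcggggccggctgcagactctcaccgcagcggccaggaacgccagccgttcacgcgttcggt
PHGDH: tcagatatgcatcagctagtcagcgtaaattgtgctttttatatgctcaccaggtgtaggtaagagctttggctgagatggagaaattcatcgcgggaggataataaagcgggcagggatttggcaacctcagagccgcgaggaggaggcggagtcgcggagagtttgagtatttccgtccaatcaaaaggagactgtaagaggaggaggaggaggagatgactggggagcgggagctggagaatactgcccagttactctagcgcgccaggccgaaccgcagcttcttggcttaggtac
DDIT4: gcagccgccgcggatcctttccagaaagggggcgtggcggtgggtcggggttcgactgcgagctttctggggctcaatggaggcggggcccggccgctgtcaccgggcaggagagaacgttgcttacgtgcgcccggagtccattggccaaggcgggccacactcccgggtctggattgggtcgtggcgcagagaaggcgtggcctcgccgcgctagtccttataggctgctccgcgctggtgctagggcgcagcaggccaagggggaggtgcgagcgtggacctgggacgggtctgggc

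All 10 members had at least 1 window in the table. The element TGATGNAA was present in the windows of 3 of them, against 4.46% of the 27305 genes with a window. In ASNS it read TGATGAAA and began 68 bases before the start, in CHAC1 it read TTGCATCA on the shown strand and began 209 bases before the start, and in ATF3 it read TGATGGAA and began 191 bases before one of its starts. The shorter motif CCAAT, searched on both strands, was present in 7 of the 10 members and in 39.7% of all genes. PSAT1 and CHAC1 held 3 copies each and DDIT4 held 2. The full cyclic AMP response element TGACGTCA was found in none of the 10 and in 2.25% of all genes, and TATAAA in 3 of the 10 and in 14% of all genes. In the members' windows no match of one motif shared bases with a match of another, and a match describes the letters of the window only.

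Library totals ran from 10593934 to 20266996 counts. Levels are given as normalised CPM, which are counts scaled to a common library total. A gene was called where edgeR's quasi-likelihood test gave a Benjamini-Hochberg adjusted p under 0.05 over the 17775 genes tested, in the fit without a block unless another is named. ATF3 was the member with the fewest reads, 19 to 57 counts in a library, followed by CHAC1 with 78 to 297 and DDIT3 with 106 to 210. Among markers of the urothelial and epithelial identity of T24, KRT7, KRT8, KRT18 and KRT19 were at 175 normalised CPM or more in every library, whereas KRT5, KRT20, TP63, CDH1, UPK1A, UPK1B and UPK3A had at most 5 counts in any library. Of the markers of other cell types, PTPRC, CD3E and ALB had at most 1 count, and CDH5 0 to 25, CD14 7 to 44 and PECAM1 1 to 47 counts in a library. PECAM1, an endothelial marker, was the one of these called in a comparison, with a rise in NS1 cells with inducer from 0.206 ± 0.151 to 1.93 ± 0.844 normalised CPM (SD, n = 3, log2 3.19, SE 0.75, adjusted p 0.0251). In bulk RNA, fewer cells with a transcript and less of it per cell cannot be told apart.

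ASNS and PHGDH, for enzymes of asparagine and serine synthesis, and SESN2 were lower in NS1 than in WT cells both without and with inducer. Without inducer 3 of the 10 members were called, all lower in NS1 cells, where 7.05% of all genes tested were called lower and 5.45% higher. With inducer in both lines 5 members were called lower, ASNS, PSAT1, PHGDH, SESN2 and TRIB3, and DDIT4 was called higher, where 14.5% of all genes were called lower and 13.6% higher. The median log2 difference of the 10 members between NS1 and WT cells was -0.55 without inducer and -0.83 with inducer, against 8.8e-05 and -0.0036 over all genes. Normalised CPM did not overlap between the lines for 4 members without inducer, all lower in NS1 cells, where 16.2% of all genes were lower without overlap. With inducer this was so for 4 lower and 2 higher members, where 22.2% of all genes were lower and 21.2% higher without overlap. The comparisons of NS1 with WT cells without and with inducer share no library, but they are not independent. They use one estimate of the spread, and within a line libraries of one replicate number deviated together. Adding the inducer left no member called in either line in the fit without a block. There 6.15% of all genes were called in NS1 cells (2.76% higher, 3.39% lower) and 0% in WT cells. At an unadjusted p under 0.05 stood 1 member, DDIT4, in NS1 cells and 0 in WT cells, where 3689 and 94 of the 17775 genes tested did. DESeq2 called 1 member in NS1 cells and 0 in WT cells. With a block for each replicate number within each line, 6 members were called in NS1 cells, where 25.9% of all genes were. That blocked fit called 0 members and 0% of all genes in WT cells. Without replicate 1 it called 0 members in NS1 cells, where 1822 of all genes were called. Without replicate 3 it called 0 members and 437 of all genes in WT cells.

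**Figure D1:**
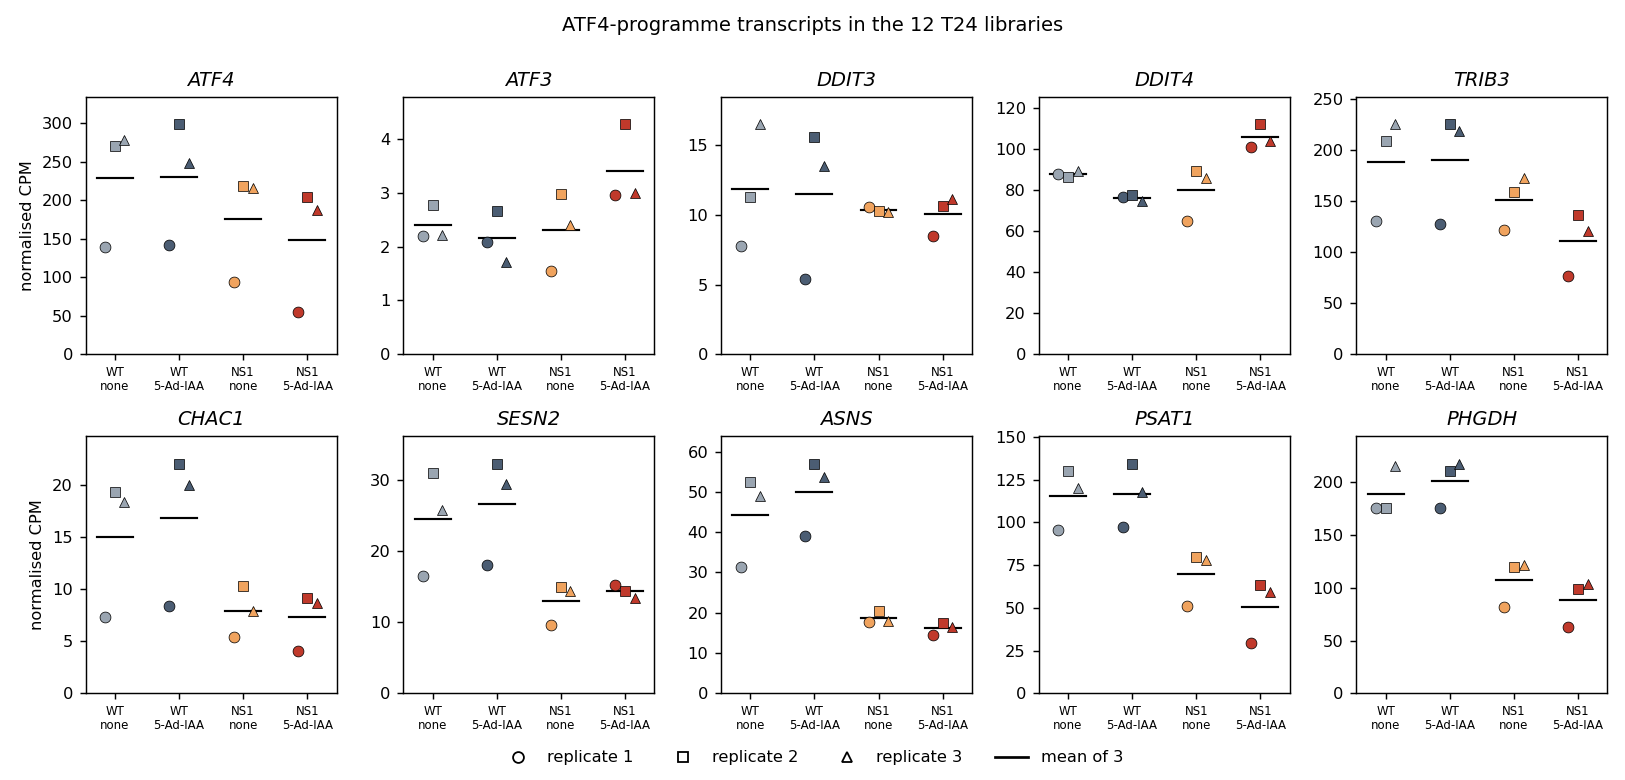
Normalised CPM (vertical axes, each from 0) of the 10 transcripts in each library, by genotype and treatment. Symbols mark the replicate number and the line is the mean of 3 libraries. ASNS, PHGDH, PSAT1 and SESN2 lie lower in all 6 NS1 libraries than in all 6 WT libraries. Replicate 1 is the lowest point of each group for ATF4, TRIB3, CHAC1, ASNS, PSAT1 and PHGDH.

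The strongest difference was that of ASNS (ENSG00000070669.17, chromosome 7), which makes asparagine from aspartate and glutamine. Untreated WT libraries had 31.3, 52.5 and 48.9 normalised CPM in replicates 1, 2 and 3, and WT libraries with inducer had 38.9, 57.0 and 53.8. The untreated NS1 libraries had 17.8, 20.4 and 18.1, and those with inducer 14.5, 17.5 and 16.4. Every NS1 library was thus below every WT library. ASNS was 2.35-fold lower in NS1 cells without inducer (log2 -1.23, SE 0.19, adjusted p 0.001615, edgeR) and 3.09-fold lower with inducer (-1.63, SE 0.19, adjusted p 8.29e-05). The first of these calls was lost without replicate 2 (adjusted p 0.0679) and without replicate 3 (0.102), and it held in the 12 fits that left out a single library. Of the ASNS exons, 44.6% are shared with ENSG00000284707 on the same strand, whose reads cannot be told apart from those of ASNS without the counting settings, and which was also lower in NS1 cells (-1.21, adjusted p 0.00117, without inducer).

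PHGDH (ENSG00000092621.12, chromosome 1, 119648411 to 119744226 on GRCh38) catalyses the first step of serine synthesis from glycolysis. Its normalised CPM were 175, 176 and 216 in untreated WT cells, 175, 210 and 218 in WT cells with inducer, 81.5, 120 and 121 in untreated NS1 cells, and 62.5, 98.9 and 103 in NS1 cells with inducer. Here too the lines did not overlap. PHGDH was 1.76-fold lower in NS1 cells without inducer (log2 -0.82, SE 0.19, adjusted p 0.0168) and 2.28-fold lower with inducer (-1.19, SE 0.20, adjusted p 0.000744). Without inducer the call was lost without replicate 2 (adjusted p 0.137) or 3 (0.165), without untreated WT replicate 3 (0.0608) and without untreated NS1 replicate 1 (0.0601).

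PSAT1 (ENSG00000135069.14, chromosome 9) encodes the aminotransferase of the next step of serine synthesis. It had 95.8, 130 and 120 normalised CPM in untreated WT cells and 97.4, 134 and 118 in WT cells with inducer. In untreated NS1 cells the values were 51.3, 79.6 and 78.0, and with inducer they were 29.5, 63.4 and 59.1, so that again no NS1 library reached a WT library. With inducer PSAT1 was 2.31-fold lower in NS1 cells (log2 -1.21, SE 0.25, adjusted p 0.00351), a call lost without replicate 3 (adjusted p 0.0579). Without inducer the difference was -0.73 (SE 0.25) with an adjusted p of 0.0764, and its 95% interval ran from -1.31 to -0.15.

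SESN2 (ENSG00000130766.5, chromosome 1) encodes sestrin 2, a leucine-binding inhibitor of mTORC1 signalling. Untreated WT libraries had 16.5, 31.0 and 25.8 normalised CPM and untreated NS1 libraries 9.57, 14.97 and 14.3. With inducer the values were 18.0, 32.3 and 29.4 in WT cells and 15.2, 14.3 and 13.5 in NS1 cells. NS1 libraries lay below WT libraries under either treatment, by 1.88-fold without inducer (log2 -0.91, SE 0.26, adjusted p 0.0337) and 1.84-fold with it (-0.88, SE 0.25, adjusted p 0.0196). These calls were among the less stable ones. Of the 12 fits that left out a single library, the call was lost in 5 without inducer, those without untreated WT replicate 2 or 3 or any one of the untreated NS1 libraries (adjusted p 0.0606 to 0.121), and in 4 with inducer, those without replicate 2 or 3 of either treated group (0.0553 to 0.0853). Leaving out all libraries of replicate 2 or 3 also ended both calls, with adjusted p of 0.229 or 0.252 without and 0.186 or 0.229 with inducer.

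TRIB3 (ENSG00000101255.11, chromosome 20) encodes a pseudokinase that ATF4 and DDIT3 induce and that in turn restrains ATF4. It had 130, 208 and 225 normalised CPM in untreated WT cells, 127, 225 and 218 in WT cells with inducer, 121, 159 and 173 in untreated NS1 cells and 76.2, 136 and 120 in NS1 cells with inducer. The ranges of the lines overlapped under both treatments, since WT replicate 1 lay within the range of the NS1 libraries. With inducer TRIB3 was 1.72-fold lower in NS1 cells (log2 -0.78, SE 0.27, adjusted p 0.0427). That call was lost in 7 of the 12 fits that left out a single library, up to an adjusted p of 0.146 without treated WT replicate 2, and without replicate 2 (0.191) or 3 (0.237). It was also lost with only the 2 treated groups in the fit (adjusted p 0.051). Without inducer the difference was -0.32 (SE 0.26, adjusted p 0.476).

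CHAC1 (ENSG00000128965.13, chromosome 15) encodes an enzyme that degrades glutathione and is a sensitive ATF4 target. Its normalised CPM were 7.31, 19.3 and 18.4 in untreated WT cells, 8.40, 22.0 and 19.99 in WT cells with inducer, 5.43, 10.2 and 7.89 in untreated NS1 cells, and 4.05, 9.17 and 8.64 in NS1 cells with inducer. Replicates 2 and 3 of WT cells stood above all NS1 libraries, and WT replicate 1 stood among them. The log2 difference between the lines was -0.92 (SE 0.43, adjusted p 0.190) without and -1.22 (SE 0.44, adjusted p 0.0526) with inducer. Neither was called in the fit without a block. With 1 block for each replicate number over both lines, they were -0.85 (adjusted p 0.00186) and -1.18 (adjusted p 8.76e-05), both called. The numbers were not taken to pair the lines.

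ATF4 itself (ENSG00000128272.14, chromosome 22, 39519695 to 39522685 on GRCh38) was not called in the fit of all libraries without a block. Untreated WT libraries had 139, 270 and 278 normalised CPM, and WT libraries with inducer 142, 299 and 249. NS1 libraries had 93.3, 219 and 216 untreated and 54.7, 204 and 187 with inducer. Replicate 1 was far below replicates 2 and 3 in each group, and the groups overlapped. The difference between NS1 and WT cells was -0.38 log2 (SE 0.45, adjusted p 0.641) without and -0.63 (SE 0.46, adjusted p 0.329) with inducer, with 95% intervals of -1.42 to 0.67 and -1.68 to 0.42. With the replicate block over both lines it was -0.42 (adjusted p 0.0800) without and -0.75 (adjusted p 0.00313, called) with inducer. Of the ATF4 pseudogenes, ATF4P3 and ATF4P4 had 97 to 351 and 72 to 296 counts in a library, and the 4 annotated pseudogenes together held 12.3% to 14.6% of the summed counts of the gene and its copies, so that some reads of ATF4 may be counted there.

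ATF3 (ENSG00000162772.17, chromosome 1), a stress-induced repressor and partner in the same factor family, was scarce. It had 2.20, 2.78 and 2.22 normalised CPM in untreated WT cells, 2.09, 2.67 and 1.71 in WT cells with inducer, 1.54, 2.98 and 2.40 in untreated NS1 cells and 2.96, 4.28 and 2.99 in NS1 cells with inducer. The lowest NS1 library with inducer was above the highest WT library with inducer, and the log2 difference was 0.64 (SE 0.27, adjusted p 0.0901). With the replicate block over both lines that difference was 0.64 too, with an adjusted p of 0.0252. DDIT3 (ENSG00000175197.12, chromosome 12, 57516588 to 57521737 on GRCh38) encodes CHOP, the factor tied to cell death under prolonged stress. Its values were 7.78, 11.3 and 16.5 in untreated WT cells, 5.41, 15.6 and 13.5 in WT cells with inducer, 10.6, 10.3 and 10.2 in untreated NS1 cells and 8.47, 10.6 and 11.1 in NS1 cells with inducer. The NS1 values lay inside the WT range in both conditions, and the log2 difference was -0.17 (SE 0.33, adjusted p 0.783) without and -0.18 (SE 0.33, adjusted p 0.732) with inducer. DDIT3 shares 27.2% of its exon bases with MARS1, 8.03% with ENSG00000285133 and 4.44% with MBD6, so that a part of its reads may be counted elsewhere.

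DDIT4 (ENSG00000168209.5, chromosome 10), which encodes REDD1, an inhibitor of mTORC1 also induced by hypoxia and glucocorticoids, was the one member called higher in NS1 cells. It had 87.6, 86.1 and 89.3 normalised CPM in untreated WT cells and 76.6, 77.4 and 74.7 in WT cells with inducer. NS1 cells had 64.8, 89.3 and 85.9 untreated and 101, 112 and 104 with inducer, so the treated NS1 libraries were above all 9 others. With inducer DDIT4 was 1.38-fold higher in NS1 than in WT cells (log2 0.47, SE 0.11, adjusted p 0.00813), a call lost without replicate 2 (adjusted p 0.117) or 3 (0.1002). Without inducer the difference was -0.13 (SE 0.11, adjusted p 0.489). The antisense gene DDIT4-AS1 covers 41.2% of the DDIT4 exon bases and moved alike (0.49, SE 0.11, adjusted p 0.00530, between the lines with inducer), and reads of the pair cannot be told apart without the strand setting.

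**Figure D2:**
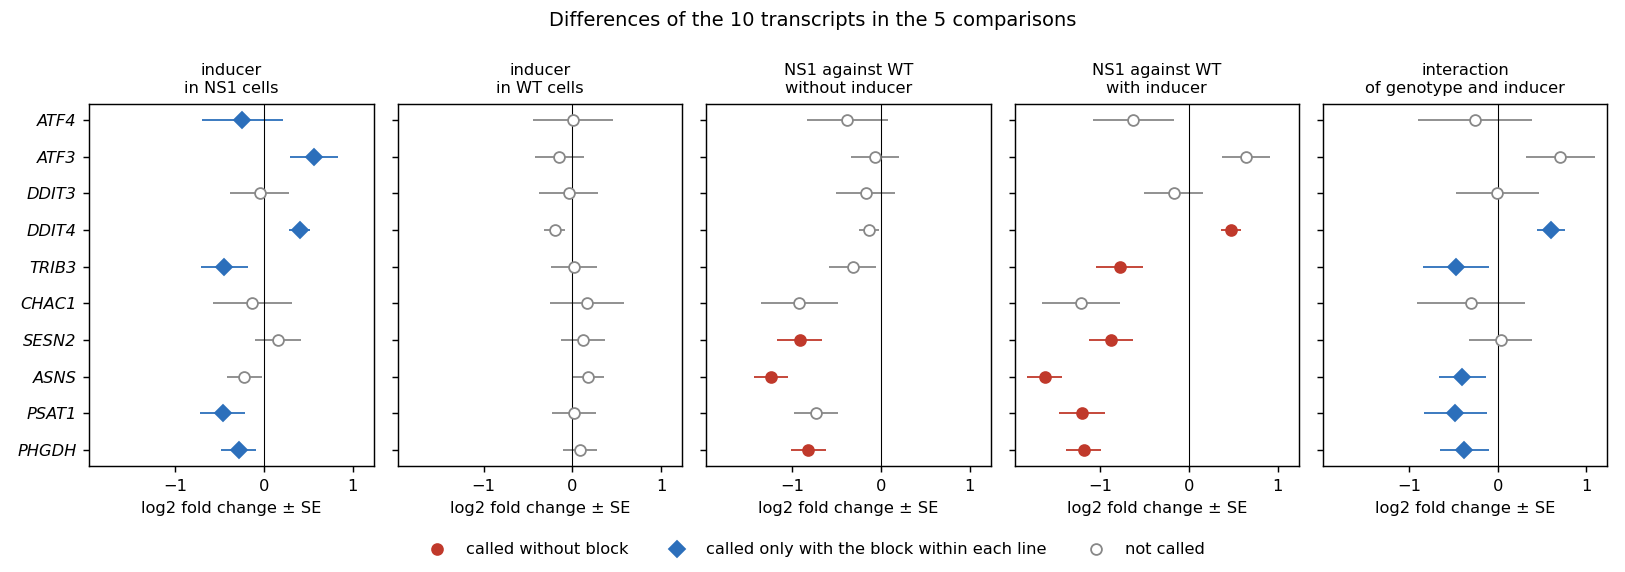
Log2 fold changes with SE (horizontal axes) of the 10 transcripts in the 5 comparisons. Red points were called without a block, blue diamonds only with a block for each replicate number within each line, and open points in neither. The red points are ASNS, SESN2 and PHGDH without inducer and, with inducer, these 3 with PSAT1, TRIB3 and DDIT4. Blocks were not applied within the lines to the comparisons between lines.

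Levels between genes were compared per length, as normalised CPM per kilobase of annotated exons. In untreated WT cells ATF4 was the most abundant of the 10, at 91.1 ± 31.0 normalised CPM per kilobase (SD, n = 3). TRIB3 followed at 54.7 ± 14.7, PSAT1 at 52.7 ± 8.06, DDIT4 at 42.6 ± 0.78 and PHGDH at 20.5 ± 2.51, and the neighbours TRIB3 and PSAT1 differed by less than their spread. ASNS at 9.93 ± 2.54, DDIT3 at 9.07 ± 3.37, CHAC1 at 7.28 ± 3.24 and SESN2 at 7.08 ± 2.12 came next, and each differed from its neighbour in this order by less than the spread. ATF3 was lowest at 0.59 ± 0.08. In NS1 cells with inducer DDIT4 stood at 51.3 ± 2.76 and ATF4 at 59.2 ± 32.6, and TRIB3 and PSAT1 were at 32.3 ± 9.02 and 23.2 ± 8.44. The annotated exons of PHGDH sum to 9217 bases over all its transcripts, the longest of the 10, which lowers its value on this scale.

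In WT cells no member differed with inducer by more than the spread between replicates allowed to be called. The log2 changes of the 10 members in WT cells ran from -0.20 for DDIT4 to 0.18 for ASNS, all with an adjusted p of 1. ATF4 had a change of 0.01 (SE 0.45) with a 95% interval from -1.04 to 1.05. DDIT4 was the member whose WT groups did not overlap, where 3.41% of all genes had this. Over all genes none was called in WT cells, with 94 at an unadjusted p under 0.05, and DESeq2 called none, with 35. Both counts are below what a test at 0.05 gives by chance, so these fits were conservative in WT cells. The absence of calls there does not show that nothing changed.

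In NS1 cells the same comparison gave positive log2 changes for ATF3, DDIT4 and SESN2 and negative ones for the other 7, none of them called. DDIT4 went from a mean of 80.01 ± 13.3 to 106 ± 5.68 normalised CPM (SD, n = 3), a log2 change of 0.40 (SE 0.11, adjusted p 0.0557), with no overlap between the groups. ATF3 changed by 0.56 (SE 0.27, adjusted p 0.258), PSAT1 by -0.46 (SE 0.25, adjusted p 0.334), TRIB3 by -0.45 (SE 0.27, adjusted p 0.379), PHGDH by -0.29 (SE 0.19, adjusted p 0.458), ATF4 by -0.25 (SE 0.45, adjusted p 0.828) and ASNS by -0.22 (SE 0.20, adjusted p 0.593). DDIT4 and ASNS were the members whose groups did not overlap, where 27.2% of all genes had this.

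Within a line, untreated and treated libraries of one replicate number deviated together from their group means. This was closest for replicate 1, with correlations of 0.713 in NS1 and 0.752 in WT cells. A replicate 1 that stands apart in both groups can make the other numbers deviate together too. The check thus cannot decide whether those other numbers pair libraries. Pairing by number within a line was assumed for the pairs read here and for the block within each line. In NS1 cells the ratio of treated to untreated libraries was above 1 in 3 of 3 pairs for DDIT4 and ATF3, from 0.27 to 0.64 log2 for DDIT4 and from 0.31 to 0.94 for ATF3. It was below 1 in 3 of 3 pairs for ATF4 (-0.77 to -0.10), TRIB3 (-0.67 to -0.22), PSAT1 (-0.80 to -0.33), PHGDH (-0.38 to -0.23) and ASNS (-0.29 to -0.14). CHAC1, DDIT3 and SESN2 had pairs of both signs. In WT cells DDIT4 was lower in 3 of 3 pairs (-0.26 to -0.15) and so was ATF3 (-0.38 to -0.06), while ASNS, CHAC1 and SESN2 were higher in 3 of 3.

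With a block for each replicate number within each line, 6 members were called in NS1 cells, where 25.9% of all genes were called, 13.0% higher and 12.8% lower. DDIT4 (log2 0.41, adjusted p 0.0013) and ATF3 (0.60, adjusted p 0.0367) rose, and PSAT1 (-0.50, adjusted p 0.000638), TRIB3 (-0.47, adjusted p 0.000761), PHGDH (-0.30, adjusted p 0.00908) and ATF4 (-0.35, adjusted p 0.0248) fell. In WT cells this fit called no member and none of all genes, and without replicate 3 it called no member and 437 of all genes. The NS1 pair of replicate 1 had the strongest change for each of the 6. In the same fit without replicate 1, 0 members were called in NS1 cells among 1822 genes called. There 4 members and 4382 of all genes had an unadjusted p under 0.05. The changes were then 0.30 for DDIT4 (adjusted p 0.0949), 0.44 for ATF3 (0.316), -0.36 for PSAT1 (0.0537), -0.37 for TRIB3 (0.0691), -0.25 for PHGDH (0.184) and -0.15 for ATF4 (0.469). Without a block and without replicate 1, PSAT1 (-0.36, adjusted p 0.0474) and TRIB3 (-0.37, adjusted p 0.0409) were called.

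**Figure D3:**
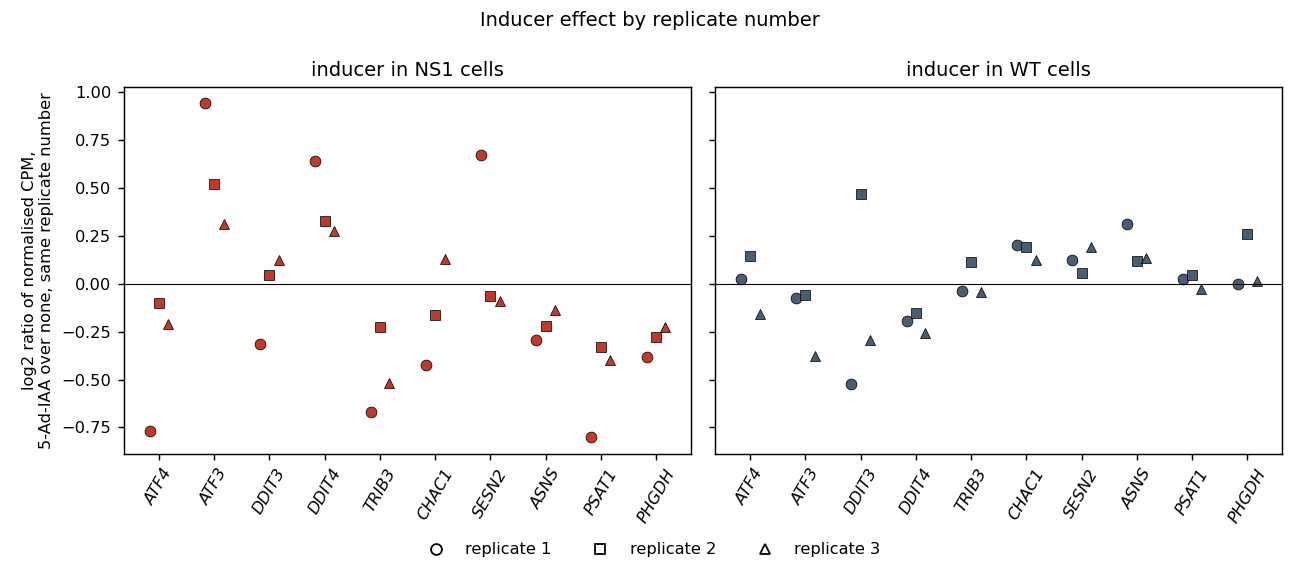
Log2 ratio of normalised CPM with inducer to that without, for libraries of the same replicate number (symbols), in NS1 cells (left) and WT cells (right). In NS1 cells the 3 ratios of DDIT4 and ATF3 are above 0 and those of ATF4, TRIB3, PSAT1, PHGDH and ASNS below 0, and replicate 1 lies farthest from 0 for these 7.

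The interaction of genotype and inducer compares the inducer effect of NS1 cells with that of WT cells. Without a block no member was called, where 0.0225% of all genes were. An unadjusted p under 0.05 was found for 1 member, DDIT4, and for 2196 of the 17775 genes tested. DESeq2 called that gene alone among the 10. With the block within each line 5 members were called, 1 higher and 4 lower, where 14.0% of all genes were, 6.98% higher and 7.06% lower. The inducer effect was higher in NS1 than in WT cells for DDIT4 (0.62, adjusted p 0.00203) and lower for PSAT1 (-0.52, adjusted p 0.00971), TRIB3 (-0.48, adjusted p 0.0126), ASNS (-0.41, adjusted p 0.0286) and PHGDH (-0.38, adjusted p 0.023). In that fit without replicate 1 none of the 5 was called, with adjusted p from 0.113 for DDIT4 to 0.413 for ASNS and 417 of all genes called. The values were then 0.51 for DDIT4, -0.37 for PSAT1, -0.41 for TRIB3, -0.31 for ASNS and -0.39 for PHGDH.

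Replicate 1 stood apart from replicates 2 and 3 in these genes, and not in these alone. In all 4 groups it was the lowest library for 6 members, ATF4, TRIB3, CHAC1, ASNS, PSAT1 and PHGDH, whereas this held for 9.45% of all genes tested. Its ATF4 level was 0.279 to 0.517 times the mean of replicates 2 and 3, its CHAC1 level 0.388 to 0.599 times and its TRIB3 level 0.572 to 0.733 times. For DDIT4 in WT cells the ratio was 0.998 without and 1.01 with inducer. Over genes with at least 20 summed counts, the chi-square for each degree of freedom was 17.6 to 30.6 between replicate 1 and the others. Between replicates 2 and 3 it was 18.2 in untreated WT cells and 3.03 to 5.46 in the other groups. Replicate 1 also had the highest totals, 15627546 to 20266996 counts, against 10593934 to 13812276, and the part of depth was not tested. The labels give no batch, and the comparisons were also fitted without replicate 1. Those fits have fewer libraries in each group, so a call lost or gained in them cannot be assigned to replicate 1 alone. Without replicate 1, 6 members were called lower in NS1 cells without inducer, namely ASNS (-1.40), CHAC1 (-1.04), SESN2 (-0.96), PHGDH (-0.70), PSAT1 (-0.67) and TRIB3 (-0.39, adjusted p 0.0215). With inducer 8 members were called without replicate 1, these same 6 and ATF4 lower (ATF4 -0.48, adjusted p 0.00559) and DDIT4 higher (0.51, adjusted p 0.00172). Calls over all genes went from 2222 to 3466 without and from 5007 to 6007 with inducer in these fits. Without replicate 2 the counts of members were 0 and 3, where 204 and 1632 of all genes were called, and without replicate 3 they were 0 and 2, where 182 and 2127 were.

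**Figure D4:**
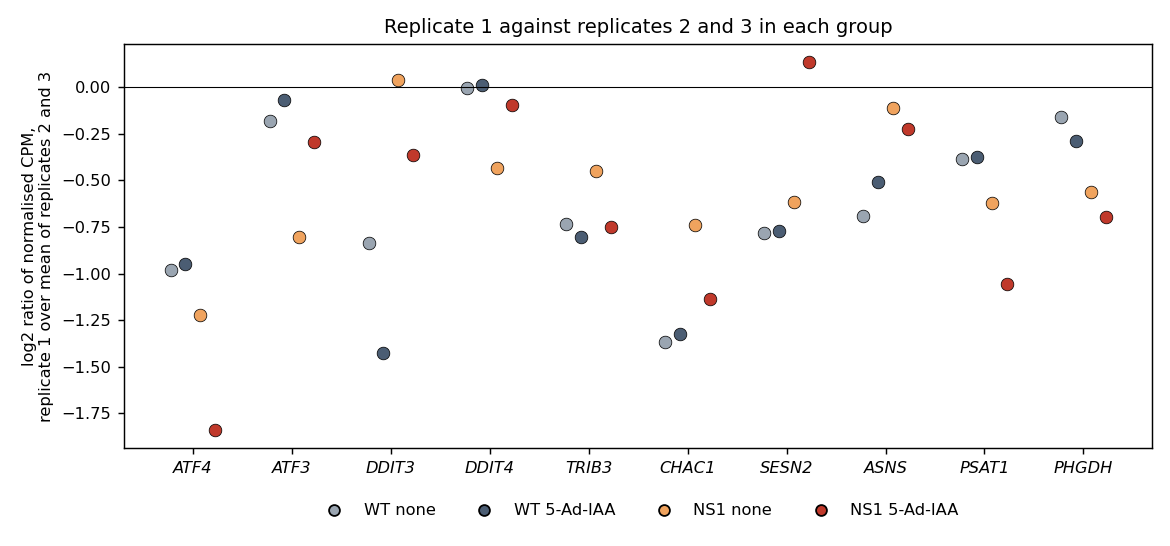
Log2 ratio of the normalised CPM of replicate 1 to the mean of replicates 2 and 3 in the 4 groups (colours). All 4 points of ATF4, TRIB3, CHAC1, ASNS, PSAT1 and PHGDH lie below 0, with ATF4 from -1.84 to -0.95, and those of DDIT4 in WT cells lie at 0.

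Among other enzymes of serine, one-carbon and proline metabolism, most were called lower in NS1 cells with inducer and a few without. Of 13 tested genes of this list, 3 were called lower and 0 higher without inducer, and 10 lower and 1 higher with inducer, with list medians of -0.30 and -0.73 log2. Over all genes 7.05% were called lower and 5.45% higher without inducer, and 14.5% and 13.6% with it. PSPH, which releases serine in the last step of its synthesis, had 18.6, 20.9 and 21.4 normalised CPM in untreated WT cells and 10.5, 8.36 and 7.69 in untreated NS1 cells (-1.19, SE 0.15, adjusted p 0.000524). With inducer its difference was -1.30 (SE 0.15, adjusted p 8.29e-05). SHMT1, which passes a carbon from serine to folate, was lower by -0.69 (SE 0.12) and -0.89 (SE 0.12), and GPT2, the mitochondrial alanine aminotransferase, by -0.83 (SE 0.21) with inducer. PYCR1, the last step of proline synthesis, was lower by -0.51 (SE 0.13) without inducer. ALDH1L1, at most 3.24 normalised CPM, was the gene called higher (1.72, SE 0.57). ALDH18A1 was not called, with 0.29 and 0.17. The count with inducer, 11, was 11 without replicate 1 and 3 without replicate 2 or 3.

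Of the aminoacyl-tRNA synthetases, which charge tRNAs with amino acids, more were called lower than higher in NS1 cells. Over all genes 7.05% were called lower and 5.45% higher without inducer, and 14.5% and 13.6% with it. Of 21 tested genes, the synthetases and the tRNA exporter XPOT (not called, -0.12 without and -0.28 with inducer), 5 were called lower and 2 higher without inducer, and 12 lower and 2 higher with inducer, with medians of -0.12 and -0.36 log2. GARS1, which charges the glycine tRNA, had 138, 186 and 209 normalised CPM in untreated WT cells and 97.3, 94.9 and 100 in untreated NS1 cells (-0.87, SE 0.16), and its difference with inducer was -1.10 (SE 0.16). CARS1 was lower by -0.67 (SE 0.18) and -0.65 (SE 0.18). With inducer YARS1 was lower by -0.77 (SE 0.13) and FARSB by -0.72 (SE 0.18). AARS1 and LARS1 were not called, with differences of -0.36 and -0.15 with inducer. The genes called higher, NARS1 and VARS1 without inducer and NARS1 and QARS1 with it, were named after their values were seen, with 0.40, 0.41, 0.29 and 0.38. The counts of calls with inducer were 10 without replicate 1 and 3 without replicate 2 or 3.

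Of 10 amino acid transporters tested, 3 were called lower and 0 higher in NS1 cells without inducer, and 4 lower and 1 higher with it, with differences below 0 for 8 and 9 of the 10. The shares over all genes were 7.05% lower and 5.45% higher without inducer, and 14.5% and 13.6% with it. SLC7A5 and SLC3A2, the subunits of the leucine transporter LAT1, were lower in NS1 cells by -1.03 (SE 0.22) and -0.83 (SE 0.20) without and by -0.81 (SE 0.22) and -0.73 (SE 0.20) with inducer. SLC1A5, a glutamine transporter, was lower by -0.68 (SE 0.17) with inducer. SLC38A2, a neutral amino acid transporter, was the gene called higher with inducer (0.58, SE 0.18) and was named after its value was seen. SLC7A11, the cystine transporter, was not called, with -0.63 (adjusted p 0.141) and -0.43 (adjusted p 0.246). Without replicate 2 or 3 the list had 0 calls in both comparisons.

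**Figure D5:**
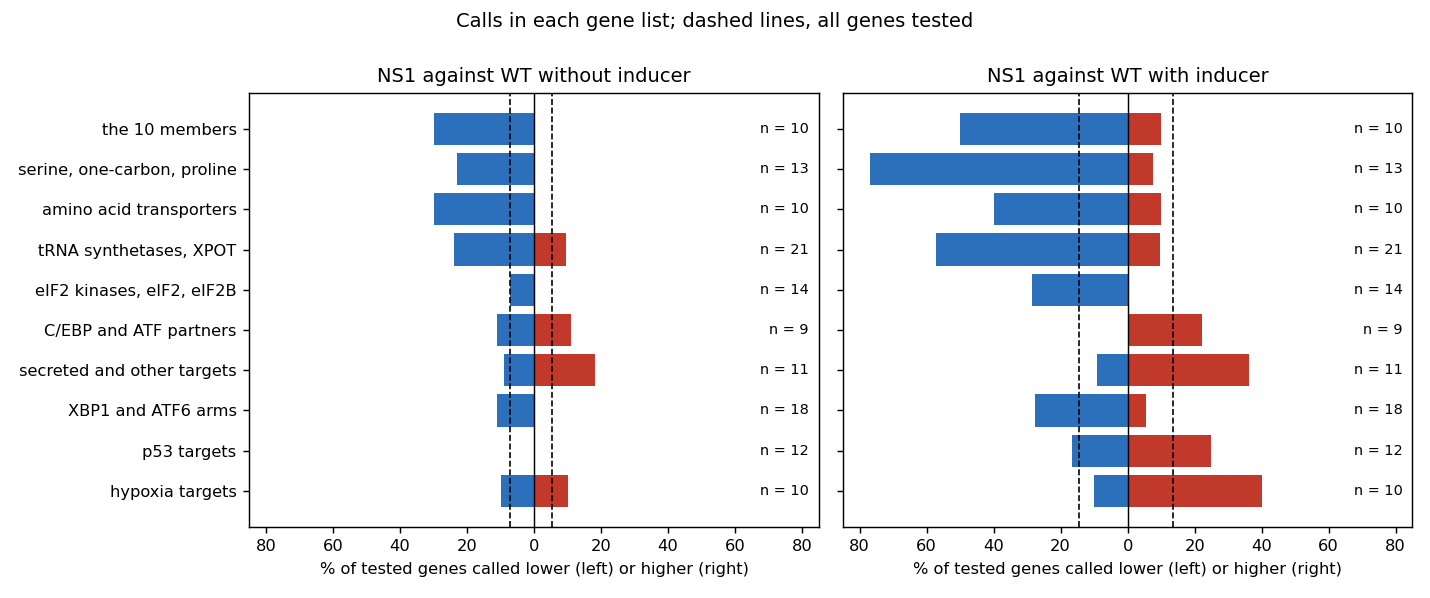
Share of tested genes in each list that were called lower (blue, left) or higher (red, right) in NS1 than in WT cells, without inducer (left panel) and with it (right panel). Dashed lines give the shares over all genes, 7.05% lower and 5.45% higher without inducer and 14.5% and 13.6% with it. With inducer 10 of 13 genes of serine, one-carbon and proline synthesis and 12 of 21 of the tRNA synthetase list were lower.

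Upstream of ATF4, one of the 4 eIF2 kinases was called between the lines. Of 14 genes for these kinases, the eIF2 phosphatase and the eIF2 and eIF2B subunits, 1 was called without inducer, EIF2AK1, which encodes HRI (-0.46, SE 0.11, adjusted p 0.016). With inducer 4 were lower, EIF2S2 (-0.62, SE 0.13), EIF2B3 (-0.52, SE 0.14), EIF2AK1 (-0.45, SE 0.11) and EIF2B2 (-0.37, SE 0.09), and 0 were higher. The shares over all genes were 7.05% lower and 5.45% higher without inducer, and 14.5% and 13.6% with it. EIF2AK4, which encodes GCN2, and EIF2AK3, which encodes PERK, were not called, with 0.13 (SE 0.12) and -0.10 (SE 0.15) with inducer. EIF2AK2, which encodes PKR, was not called either, with 0.02 (SE 0.15) without and 0.33 (SE 0.15, adjusted p 0.111) with inducer, though its treated libraries did not overlap, at 91.0 to 92.6 normalised CPM in WT and 109 to 127 in NS1 cells. With inducer in NS1 cells EIF2B2 fell (-0.40, SE 0.09, adjusted p 0.0223).

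Among ATF4's partners and related regulators, 9 were tested. ATF5, a relative of ATF4 that is translated in a like manner, was higher in NS1 cells by 0.53 (SE 0.10) without and 0.50 (SE 0.10) with inducer. BATF2 was lower without inducer (-1.96, SE 0.44) at levels under 3 normalised CPM, and CEBPD was higher with inducer (0.60, SE 0.20). CEBPB and CEBPG, the partners best known at the response elements, were not called, with -0.16 and -0.29 with inducer. NFE2L2 rose with inducer in NS1 cells (0.36, SE 0.09, adjusted p 0.0351).

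Secreted and other stress targets went both ways. Of 11 tested, 2 were called higher and 1 lower in NS1 cells without inducer, and 4 higher and 1 lower with it. The shares over all genes were 5.45% higher and 7.05% lower without inducer, and 13.6% and 14.5% with it. NIBAN1 was lower by -1.20 (SE 0.23) and -1.58 (SE 0.23). RRAGD, a Rag GTPase of the mTORC1 pathway, was higher by 1.92 (SE 0.47) and 2.13 (SE 0.47), and STC2, which encodes stanniocalcin 2, by 1.18 (SE 0.34) and 1.14 (SE 0.34). KLHL24 had 17.5, 15.05 and 12.9 normalised CPM in untreated NS1 cells and 42.6, 30.4 and 26.4 with inducer, a rise of 1.13 (SE 0.27, adjusted p 0.0271). GDF15 and VEGFA were not called, with 0.40 (SE 0.44) and -0.05 (SE 0.41) between the lines with inducer.

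The other arms of the unfolded protein response, driven by XBP1 and ATF6, gave 2 genes lower and 0 higher of 18 without inducer, and 5 lower and 1 higher with it. XBP1 was lower by -0.74 (SE 0.21) and -0.90 (SE 0.21) and PDIA4 by -0.70 (SE 0.13) and -0.79 (SE 0.13), while HSPA5, the chaperone BiP, was not called, with -0.18 and -0.08. Targets of p53, which can also induce SESN2, gave 0 calls of 12 without inducer in edgeR, with 1 by DESeq2. At an unadjusted p under 0.05 in edgeR stood 4 of the 12, where 4948 of all genes tested did. With inducer 3 were called higher and 2 lower, led by BTG2 (1.86, SE 0.36) and GADD45A (0.84, SE 0.21). CDKN1A was not called (0.02, SE 0.32). Of 10 hypoxia targets, a class that DDIT4 also belongs to, 1 was called higher and 1 lower without inducer, and 4 higher and 1 lower with it, where the shares over all genes were 5.45% and 7.05% without and 13.6% and 14.5% with inducer. Where a single library was left out the calls of this list ran from 0 to 2 without inducer, moving by over 1.5 times in 11 of 12 fits, and from 3 to 6 with inducer, with 1 without replicate 3. EGLN3 (1.38, SE 0.40) and ADM (0.77, SE 0.22) were higher with inducer and CA9 lower (-1.76, SE 0.44). EGLN3 and CA9 were scarce, with means of 4.23 and 0.471 normalised CPM in treated NS1 cells and 1.59 and 1.47 in treated WT cells. Without replicate 2 or 3 the calls of each of these 3 lists and of the 3 before them were 0 or 1 without inducer and 0 to 4 with it.

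With inducer in NS1 cells few genes of these lists were called in the fit without a block. MTHFD1, a folate enzyme that supplies one-carbon units (-0.54, SE 0.12, adjusted p 0.0203), and VARS1, which charges the valine tRNA (-0.48, SE 0.12, adjusted p 0.0317), fell and were the calls of their lists. FAS, a death receptor and p53 target, fell (-0.54, SE 0.14, adjusted p 0.0398), and BTG2 rose (1.53, SE 0.35, adjusted p 0.0227). With the block within each line, 12.8% of all genes were called lower and 13.0% higher. Of the serine, one-carbon and proline list 6 of 13 were called lower and 1 higher, and of the tRNA synthetase list 8 of 21 lower and 2 higher. Of the transporters 3 of 10 were lower and 1 higher, and of the eIF2 list 5 of 14 lower and 0 higher. The list of ATF4's partners went the other way, with 0 of 9 lower and 4 higher. Of the secreted and other targets 2 of 11 were lower and 3 higher. Of the XBP1 and ATF6 arms 2 of 18 were lower and 1 higher, of the p53 targets 3 of 12 lower and 2 higher, and of the hypoxia targets 0 of 10 lower and 1 higher.

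Cell type markers also differed between the lines, in both directions. Over all genes 7.05% were called lower and 5.45% higher without inducer, and 14.5% and 13.6% with it. Of the 4 mesenchymal markers 1 was called lower and 1 higher in NS1 cells under either treatment, VIM lower (-1.20 without and -1.30 with inducer) and CDH2 higher (0.58 and 0.98). Of the 9 tested genes of the urothelial list, 1 was called higher, KRT19 (0.78), and 1 lower, EPCAM (-1.76), in NS1 cells without inducer, and 5 higher and 0 lower with it, with KRT19 at 1.31. EPCAM was scarce, with means of 0.945 normalised CPM in untreated NS1 and 3.03 in untreated WT cells. GATA3 rose with inducer in NS1 cells (1.34, SE 0.32, adjusted p 0.0282). Their part in the differences of the ATF4 target genes was not tested.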

How the data were processed

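The authors deposited one table of read counts, whole numbers per gene that were not normalised, with 60603 versioned Ensembl identifiers and a column for each of the 12 libraries. Per the labels' protocols, libraries came from poly(A) RNA and a NEBNext Ultra II kit, and sequencing used a 75-cycle NextSeq kit. The submitters' processing notes name STAR 2.7.3a, featureCounts 1.6.4 and hg38. The annotation release and the settings for strand and multi-mapping reads are not given in the sources used here, so reads of overlapping genes, antisense partners and pseudogenes could be counted for either gene. Symbols were matched for 60306 identifiers, and overlaps and positions came from GENCODE release 29 on GRCh38, with a start and end given only where the version was the same. Overlaps were examined for the 10 genes of the report and not for the genes of the other lists.

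Testing used edgeR 4.0.16 under R 4.3.3 (filterByExpr over the 4 groups, TMM, 1 mean per group over all 12 libraries with 8 residual degrees of freedom, glmQLFit and glmQLFTest, two-sided). The 5 comparisons were adjusted by Benjamini-Hochberg over the 17775 genes tested, and a log2 fold change divided by the square root of its F gives its SE. Normalised CPM and the blocks for replicate numbers were computed from the same counts. The numbers were taken to pair libraries within a line because the correlations of same-numbered libraries' deviations from their group means were 0.384 to 0.713 in NS1 and 0.256 to 0.752 in WT cells. Across the lines under one treatment they were 0.0719 to 0.19 and 0.00601 to 0.153, and numbers were not taken to pair the lines. Correlations of differently numbered libraries are not given here. An outlying replicate 1 can raise the correlations of the other numbers, so within a line this check cannot decide whether those pair libraries. Pairing within a line is thus an assumption of the block within each line. The closest libraries of a group had a chi-square of 3.03 for each degree of freedom, so none was treated as a duplicate. The steps were tested on simulated data. Promoter windows came from RefSeq on GRCh38.p14. Alternatives were DESeq2 1.42.0, other scalings and filters, fits of only the groups compared, blocks, left-out libraries, and pseudogene counts added to their parent genes. The last, and the block within each line with a replicate number left out, were chosen after seeing the data.

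The genes and lists were chosen with earlier results of these data known. The text names all 10 genes, their pseudogenes and overlapping genes and, for each list and comparison, up to 4 called genes with the largest change and up to 2 genes with a mean of at least 10 CPM that were not called. Intervals are at the 95% level.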

Additional observations from a re-analysis of the deposited data

Results flagged for a closer look

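The effect of the inducer differed between NS1 and WT cells for 5 of the 10 genes in the edgeR test of the interaction with a block for each replicate number within each line, in which NS1 minus WT is given on the log2 scale and 14.0% of all genes were called. The values were 0.62 for DDIT4, -0.48 for TRIB3, -0.41 for ASNS, -0.52 for PSAT1 and -0.38 for PHGDH. The change was above 0 in 3 of 3 NS1 pairs and below 0 in 3 of 3 WT pairs for DDIT4, and the reverse for ASNS. In edgeR none of the 5 was called without a block or, in the blocked fit, without replicate 1, and DESeq2 without a block called DDIT4 (0.60, adjusted p 0.03445). The pairs and the block within each line assume that replicate numbers pair libraries, which was not shown for every number. Groups of 3 libraries are too small for a test of single outlying libraries.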

How the results depend on the processing

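The number of the 10 genes called in the inducer comparison of NS1 cells, 0 without a block, was 2 with no low-count filter, 1 with at least 10 counts in every library, 1 with DESeq2, 3 with one replicate block for each number and 6 with the block within each line, and 0 to 6 where libraries were left out. In WT cells it was 0 in all of these. Between the untreated lines it was 3, with 5 for no low-count filter, 6 with the replicate block, and 0 to 6 where libraries were left out. Between the treated lines it was 6, and 2 to 8 where libraries were left out. The interaction had 0, with 1 by DESeq2, 1 with the replicate block, 5 with the block within each line, and 0 to 6 where libraries were left out. In the blocked fits without replicate 2 and without replicate 3, 5 and 6 of the 10 genes were called in NS1 cells, where 3183 and 4676 of all genes were. In the interaction 3 and 6 were called, where 1420 and 3725 of all genes were. Calls over all genes moved as well under settings that kept all libraries. They ran from 1007 to 4596 in NS1 cells, 1603 to 3908 and 4530 to 6670 between the untreated and treated lines, and 6 to 2495 in the interaction. The changing counts of the 10 genes were therefore not read as particular to them. Of the single results under settings that kept all libraries, 380 kept direction and side of the threshold, 34 passed it in addition, 1 lost it and 5 changed sign. All 5 sign changes were of values near 0. ATF4 in the WT inducer comparison was -0.00025 with pseudogene counts added. In the interaction SESN2 was -0.011 with library totals only, and DDIT3 was 0.0102 with at least 10 counts in every library, 0.0020 with the replicate block and 0.0273 with the block within each line.

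Some changes reversed where libraries were left out, none of them called in the fit of all libraries without a block. In NS1 cells with inducer ATF4 ran from -0.55 to 0.15, DDIT3 from -0.14 to 0.088, CHAC1 from -0.35 to 0.19 and SESN2 from -0.078 to 0.33. In WT cells with inducer ATF4 ran from -0.26 to 0.26, DDIT3 from -0.40 to 0.32, TRIB3 from -0.19 to 0.24, CHAC1 from -0.18 to 0.51, SESN2 from -0.11 to 0.35, ASNS from -0.026 to 0.33 and PSAT1 from -0.10 to 0.13. Between the untreated lines ATF3 ran from -0.30 to 0.18 and DDIT3 from -0.42 to 0.14, and between the treated lines DDIT3 from -0.54 to 0.12. In the interaction ATF4 ran from -0.56 to 0.15, DDIT3 from -0.37 to 0.30, CHAC1 from -0.64 to 0.048 and SESN2 from -0.20 to 0.26. Causes of these changes were not tested.

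For the comparisons between lines, whose libraries share only a number, the replicate block gave 6 calls without inducer and 9 with it. The calls it added were CHAC1, PSAT1 and TRIB3 without inducer and CHAC1, ATF4 and ATF3 with it. The share of all genes called in that fit is not given here, so these counts were not read against it. The block within each line was not run there, since its error leaves out the spread between replicates of a line, and the fit of only the groups compared is not possible for the interaction. The count of all genes called with inducer in NS1 cells, 1093, ran from 1007 to 4596 with all libraries. Under the same settings it ran from 1603 to 3908 between the untreated lines and from 4530 to 6670 between the treated lines. In the interaction it ran from 6 to 2495, and in WT cells it was 0. Depth limits ATF3 most, with 19 to 57 counts in a library.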
